A study of Mus musculus with 12 samples.

Results

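The lipoprotein lipase system and lipoprotein receptors were examined in mouse liver through 9 genes, taken by symbol from a table of 55401 genes. They are the lipases Lpl, Lipc and Lipg, the lipase maturation and transport factors Lmf1 and Gpihbp1, the inhibitors Angptl4 and Angptl8, and the receptors Vldlr and Lrp1. All 9 passed the filter on low counts, with between 133 and 22746 counts per library. The samples were 12 livers of female mice aged 15 weeks, 6 labelled iTgMir483 and 6 labelled control, each read once by RNA-seq. In the iTgMir483 mice a single Tet-off transgene at the Rosa26 locus, holding Mir483 and its transactivator, is active unless doxycycline is given. According to the study's methods, dams drank doxycycline throughout pregnancy and not afterwards, so the transgene was on from birth. Males heterozygous for the transgene were mated with females homozygous for CMV-Cre, a ubiquitous Cre, so mice of both groups had a mother carrying Cre. The labels say no more of the control genotype than that word, and the study calls these mice littermates. Rosa26 is active in most tissues, so the transgene is not limited to hepatocytes or even to liver.

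Lipoprotein lipase and its relatives hydrolyse the triglycerides and phospholipids that lipoproteins carry in plasma. Lipoprotein lipase folds in the endoplasmic reticulum with the help of Lmf1, is carried to the capillary surface by Gpihbp1 and is inhibited by angiopoietin-like proteins, and the remnants it leaves are cleared by endocytic receptors. The adult liver is known for hepatic lipase (Lipc) rather than for lipoprotein lipase, whose main sites are adipose tissue and muscle, and hepatic macrophages also make Lpl. Vldlr is likewise known mainly from adipose tissue, muscle and heart, whereas Lrp1 is a major remnant receptor of hepatocytes.

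The over-expressed miRNA gene gives a pair of mature products, shown here because their seeds decide which 3′ UTR letters were looked for in the members. The sequences are RefSeq's, on the minus strand of GRCm38 at chr7:142654932-142654952 and chr7:142654968-142654989, with capitals marking the seed at bases 2 to 8.
mmu-miR-483-3p: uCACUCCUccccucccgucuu
mmu-miR-483-5p: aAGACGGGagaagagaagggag
The letters searched were AGGAGTG and GGAGTGA for miR-483-3p, and CCCGTCT and CCGTCTA for miR-483-5p, on the strand of the transcript, where a match to both members of a pair at 1 place is an 8mer. The longest annotated 3′ UTR of each member ran from 139 bases in Lipc to 5091 bases in Vldlr, with 2428 bases in Lpl, and none of the 9 held any of these letters. Of 12098 tested genes with an annotated 3′ UTR, 17.6% held a match to miR-483-3p and 4.24% held a match to miR-483-5p. A search for 6mers, added after these results were seen, found CCGTCT of miR-483-5p in Lpl and a miR-483-3p 6mer in Lipg. Such 6mers were present in 11.8% and 31.0% of all the 3′ UTRs, respectively. The Lpl match, in the 3′ UTR at chr8:68906787-68906792 on the plus strand of GRCm38, is shown with its flanks and with capitals marking the 6mer, below it the 7-base miR-483-3p match of Igf1, a gene outside the system, at chr10:87930908-87930914.
Lpl: ctaactttgtgtCCGTCTccatccatgatt
Igf1: acatcgtctttAGGAGTGtttgtttaaaa
A match describes letters in a window and is not evidence of binding.

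Library totals ranged from 12244123 to 30431286 counts in controls and from 12415140 to 15846175 counts in iTgMir483 livers. Mir483 had 0 counts in every control and from 23.3 to 54.3 CPM (counts scaled by TMM to a common library size) in iTgMir483 livers, so no library went against its label. Summed hepatocyte markers ranged from 136147 to 185577 CPM in controls and from 73719.7 to 142713 CPM in iTgMir483 livers, and 2 of 9 of them, Cps1 and Serpina1e, fell. Alb made up most of this sum, with means of 111914 CPM in controls and 76071.4 CPM in iTgMir483 livers. Its log2 fold change of -0.56 did not pass (adjusted p = 0.505 by edgeR). Some livers stood apart. In replicate 1 of each group the 10 fasting-response genes were the lowest of their group, at 10957 CPM against at least 24846 CPM in other controls and at 7663.28 CPM against at least 12416.7 CPM in other iTgMir483 livers. The feeding-response genes were the highest of their group in the same libraries, at 5029.17 and 11612.1 CPM. iTgMir483 replicate 4 was close behind, at 9941.97 CPM, above 3360.31 to 4407.92 CPM in the other iTgMir483 livers, and it also had the highest sum of Kupffer cell genes, 1886.73 CPM. In bulk liver, fewer cells of a type and less RNA per cell cannot be told apart.

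Lpl and Vldlr rose in iTgMir483 livers, 2 of the 9 members, and no member fell. By the same rule, a Benjamini-Hochberg adjusted p under 0.05 with a fold change over 1.5 in edgeR's quasi-likelihood test, 1475 of 13205 tested genes were called, or 11.2% (8.44% higher and 2.73% lower). Gpihbp1 passed the adjusted p but not the fold. The median log2 fold change of the 9 members was 0.32, beside 0.01 over all genes tested. Of the 9 members, Lpl and Gpihbp1 did not overlap between groups, both higher in iTgMir483 livers; 7.92% of all tested genes did not overlap (5.09% higher and 2.83% lower).

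**Figure D1:**
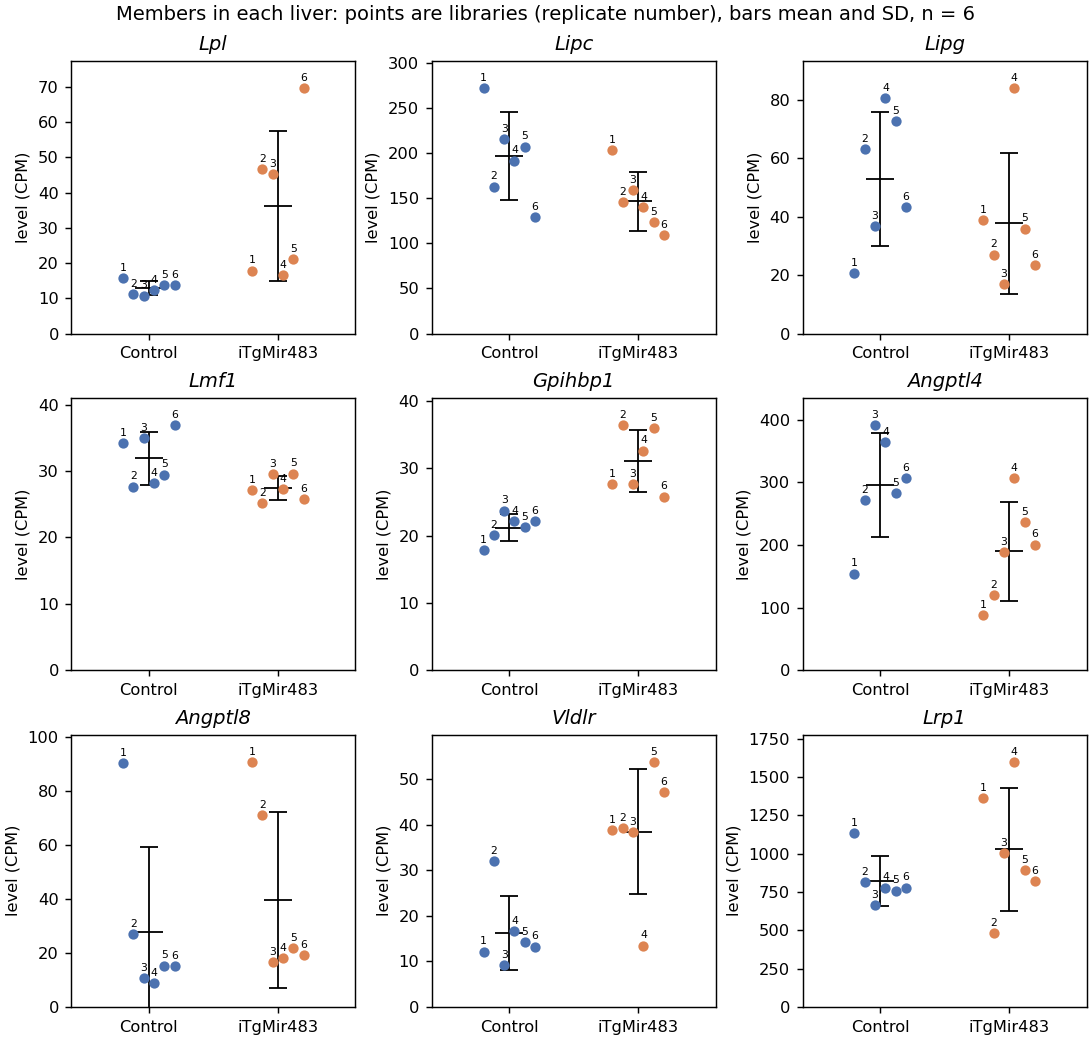
Level of each of the 9 genes in CPM (vertical axis, starting at 0) in 6 control and 6 iTgMir483 livers. Points are libraries with their replicate number, and bars show the mean and SD. All iTgMir483 livers lie above all controls for Lpl and Gpihbp1, and 5 of 6 do so for Vldlr.

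Lpl (ENSMUSG00000015568, GRCm38 chromosome 8, 68880491 to 68907448, plus strand) encodes lipoprotein lipase. Its level was 15.8, 11.2, 10.7, 12.3, 13.7 and 13.6 CPM in control replicates 1 to 6, and 17.8, 46.7, 45.3, 16.5, 21.2 and 69.6 CPM in iTgMir483 replicates 1 to 6. The groups did not overlap, and the iTgMir483 livers split into 3 livers at 16.5 to 21.2 CPM, close to the controls, and 3 livers, replicates 2, 3 and 6, at 45.3 to 69.6 CPM. The mean rose from 12.9 ± 1.87 to 36.2 ± 21.3 CPM (SD, n = 6 each), 2.80-fold. On the log2 scale this was 1.49 with SE 0.314 (edgeR adjusted p = 0.00565), and the exact permutation p was 0.0022 (two-sided over assignments of the livers), the smallest the design can give.

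Cells that are known to make Lpl were represented unevenly. Of 13 Kupffer cell genes 10 rose and 1, Cd163, fell, with a summed level of 564.9 to 795.4 CPM in controls and 757.5 to 1886.7 CPM in iTgMir483 livers and a median log2 fold change of 0.999. The most abundant that rose were Cd5l, Clec4f and Csf1r, at log2 fold changes of 1.03, 0.72 and 1.09. Slc40a1, the most abundant of the 13 in controls, did not rise, at -0.13 (adjusted p = 0.524 by edgeR). Of 12 genes of recruited or lipid-associated macrophages 8 were tested and 5 rose, among them Spp1 (log2 fold change 1.31). Their sum was 30.6 to 67.9 CPM in controls and 83.0 to 121.5 CPM in iTgMir483 livers. Spp1 alone had a mean of 25.6 CPM of a mean sum of 46.9 CPM in controls. In iTgMir483 livers it had 63.6 of 100.8 CPM. Ccr2, of the same list, went the other way, at -0.59, and did not pass (adjusted p = 0.109 by edgeR). The part of these cells in the higher Lpl was not tested.

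Lpl and the Kupffer cell genes did not order the livers alike. iTgMir483 replicate 4 had the highest Kupffer cell sum and, at 16.5 CPM, the lowest Lpl of its group, while replicate 3, with the lowest sum, had 45.3 CPM. Within the 6 controls the correlation of Lpl with the mean log2 CPM of the Kupffer cell genes was r = -0.321 (rho = -0.257), and within the 6 iTgMir483 livers it was r = -0.417 (rho = -0.314). The exact permutation p was 0.535 and 0.454 for r and 0.658 and 0.564 for rho, with an adjusted p of 0.642 for both r and 0.658 for both rho over 6 relations of this kind. Without the 2 livers farthest from the median of the score, r was 0.498 and 0.435, so the sign rested on those livers.

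Adipose and muscle genes were at or near 0. None of 6 adipocyte markers passed the filter, their sum was at most 2.34 CPM in controls and 0.313 CPM in iTgMir483 livers, and Lep was at 0 in every library. Adipoq and Cfd were at 0 in every iTgMir483 liver. Of 6 striated muscle markers 1, Mylpf, was tested (log2 fold change 0.02), and the sum was at most 1.004 CPM in either group.

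Lipc (ENSMUSG00000032207, chromosome 9, 70798128 to 70952226, minus strand) encodes hepatic lipase. It stood at 272.2, 163.2, 216.0, 192.0, 207.4 and 129.0 CPM in control replicates 1 to 6 and at 203.5, 145.8, 159.4, 140.2, 123.9 and 109.3 CPM in iTgMir483 replicates 1 to 6. The groups overlapped, with 2 iTgMir483 livers below every control and 1 above the control mean. The difference on the log2 scale, -0.42 (SE 0.174, 95% interval -0.76 to -0.08), did not pass after adjustment (edgeR adjusted p = 0.106, exact permutation p 0.0671).

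Lipg (ENSMUSG00000053846, chromosome 18, 74939322 to 74961263, minus strand) encodes endothelial lipase, which acts mainly on phospholipids of high-density lipoprotein. Its level was 20.6, 63.0, 36.7, 80.4, 72.5 and 43.2 CPM in controls and 38.7, 27.0, 16.9, 83.8, 35.8 and 23.5 CPM in iTgMir483 livers, in order of replicate number. Both groups spanned a wide and shared range, with the highest value in iTgMir483 replicate 4. The log2 fold change of -0.49 (SE 0.371, 95% interval -1.22 to 0.24) did not pass (adjusted p = 0.379 by edgeR), and without that liver it was -0.89 (adjusted p = 0.0635).

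The balance of Lpl to Lipc differed between the groups. The log2 ratio of Lpl to Lipc in CPM, which does not depend on library scaling, was -3.89 ± 0.364 (SD, n = 6) in controls and -2.20 ± 1.04 (SD, n = 6) in iTgMir483 livers. The difference was 1.69 (exact permutation p 0.00433, adjusted p = 0.0216 over the 5 ratios tested). This call was lost, with an adjusted p = 0.0541 by the exact permutation test, when any 1 of control replicates 1 to 5 was left out, while the difference in those settings was 1.601 to 1.695. Among the lipase gene family, Lpl was the 1 called member of 4 tested. Pla1a, a phosphatidylserine phospholipase, had a log2 fold change of -0.20 (adjusted p = 0.297 by edgeR), and Pnlip, Pnliprp1, Pnliprp2, Lipi and Liph did not pass the filter.

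Gpihbp1 (ENSMUSG00000022579, chromosome 15, 75596628 to 75599481, plus strand) encodes the endothelial protein that binds lipoprotein lipase and moves it to the capillary lumen. It had 17.9, 20.1, 23.7, 22.1, 21.2 and 22.1 CPM in control replicates 1 to 6 and 27.7, 36.4, 27.6, 32.6, 36.0 and 25.8 CPM in iTgMir483 replicates 1 to 6. Every iTgMir483 liver lay above every control, and the spread within a group was small, at 9.49% and 14.9% of the mean. The mean went from 21.2 ± 2.01 to 31.0 ± 4.61 CPM, a ratio of 1.46. Its log2 fold change, 0.55 with SE 0.108 (edgeR adjusted p = 0.00397, exact permutation p 0.0022), was just under the fold of 1.5, and it reached 0.60 without iTgMir483 replicate 6.

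Most endothelial markers did not pass. Of 12 markers of sinusoidal and other endothelium 1, Cd34, rose (log2 fold change 1.20), the median log2 fold change was 0.17, and the sums of 358.6 to 427.9 CPM in controls and 346.9 to 465.1 CPM in iTgMir483 livers overlapped. The most abundant of them, Stab2, Clec4g and Fcgr2b, had log2 fold changes of 0.10, -0.18 and -0.31. Like Gpihbp1, Tie1 (0.39, adjusted p = 0.0132) and Pecam1 (0.42, adjusted p = 0.0240) passed the adjusted p of edgeR but not the fold, and Tie1 did not overlap between groups. Cdh5 and Vwf, at 0.43 and 0.40, did not pass. The part of endothelial cells in the Gpihbp1 difference was not tested. The log2 ratio of Lpl to Gpihbp1 was -0.72 ± 0.317 in controls and 0.02 ± 0.960 in iTgMir483 livers (difference 0.74, exact permutation p 0.113, adjusted p = 0.188).

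Lmf1 (ENSMUSG00000002279, chromosome 17, 25579085 to 25662826, plus strand) encodes the endoplasmic reticulum factor that lipases need to fold. Its level was 34.3, 27.7, 35.0, 28.2, 29.5 and 36.9 CPM in controls and 27.2, 25.2, 29.5, 27.3, 29.6 and 25.8 CPM in iTgMir483 livers. It varied little within either group, and 4 of 6 iTgMir483 livers lay below every control. Its log2 fold change of -0.22 (SE 0.0934, 95% interval -0.40 to -0.03) did not pass after adjustment (adjusted p = 0.118 by edgeR, exact permutation p 0.0346).

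Angptl4 (ENSMUSG00000002289, chromosome 17, 33773750 to 33781830, minus strand) encodes an inhibitor of lipoprotein lipase that fasting is known to induce. It had 154.4, 272.3, 391.7, 364.5, 283.5 and 306.9 CPM in control replicates 1 to 6 and 87.8, 119.7, 189.2, 306.4, 236.1 and 200.5 CPM in iTgMir483 replicates 1 to 6. The groups overlapped, and replicate 1 was the lowest liver of each. Angptl4 had a log2 fold change of -0.64 (SE 0.272, 95% interval -1.17 to -0.10), short of the threshold (adjusted p = 0.116 by edgeR, exact permutation p 0.0671). It passed without control replicate 1 (-0.77, adjusted p = 0.0451), without iTgMir483 replicate 4 (-0.83, adjusted p = 0.0427) and without both replicate 1 libraries (-0.62, adjusted p = 0.0434), all by edgeR.

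Angptl8 (ENSMUSG00000047822, chromosome 9, 21835510 to 21837347, plus strand, inside the body of Dock6 on the other strand) encodes a partner of other angiopoietin-like proteins that feeding and insulin are known to induce. Its level was 90.3, 26.9, 10.7, 8.69, 15.3 and 15.0 CPM in controls and 90.8, 71.2, 16.6, 18.03, 21.9 and 19.3 CPM in iTgMir483 livers. Control replicate 1 and iTgMir483 replicates 1 and 2 stood far above the other 9 livers, whichever their group. Between groups it differed by a log2 fold change of 0.51 (SE 0.6004, 95% interval -0.67 to 1.69, adjusted p = 0.590 by edgeR). It was 1.37 without control replicate 1 (adjusted p = 0.0601) and 0.08 without iTgMir483 replicate 1 (adjusted p = 0.942), so single livers set its size.

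The inhibitors ran opposite to each other across livers. Over deviations of log2 CPM from the group means in 12 livers, Angptl4 and Angptl8 had r = -0.916, and r = -0.804 over the 10 livers left without replicate 1. Both values of a point come from the same library, and the correlation is a description. The log2 ratio of Angptl8 to Angptl4 was -3.87 ± 1.68 in controls and -2.51 ± 1.71 in iTgMir483 livers (difference 1.35, exact permutation p 0.182, adjusted p = 0.195). This difference did not pass.

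In replicate 1 of both groups high Angptl8 and low Angptl4 went with high feeding and low fasting genes, but not in every liver that stood apart. iTgMir483 replicate 2, high in Angptl8, had a feeding-response sum of 4162.14 CPM, near that of its group's lower livers. iTgMir483 replicate 4, with 9941.97 CPM, had the highest Angptl4 of its group and low Angptl8. In controls Angptl8 followed the mean log2 CPM of 9 tested feeding-response genes (r = 0.943, exact permutation p 0.0222, adjusted p = 0.133; rho = 0.6, exact permutation p 0.242), and without the 2 livers farthest from the median of that score r was -0.218. In iTgMir483 livers r was 0.270 (rho = 0.257, exact permutation p 0.693 and 0.658), and -0.787 without the 2 farthest. Angptl4 and the fasting-response score had r = 0.885 in controls (rho = 0.486, exact permutation p 0.0694 and 0.356) and r = 0.667 in iTgMir483 livers (rho = 0.371, exact permutation p 0.135 and 0.497). Without the 2 farthest livers r was 0.230 and -0.02. None of the 6 relations passed adjustment, and the higher values rested on the livers left out, replicate 1 among them in each case. Of the feeding-response genes 4 of 9 rose (Fasn, Thrsp, Elovl6 and Acaca), and of the fasting-response genes 1 of 10, Cyp4a14, fell. The feeding state of these mice was not among the labels, and its part in the inhibitors' levels was not tested.

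**Figure D2:**
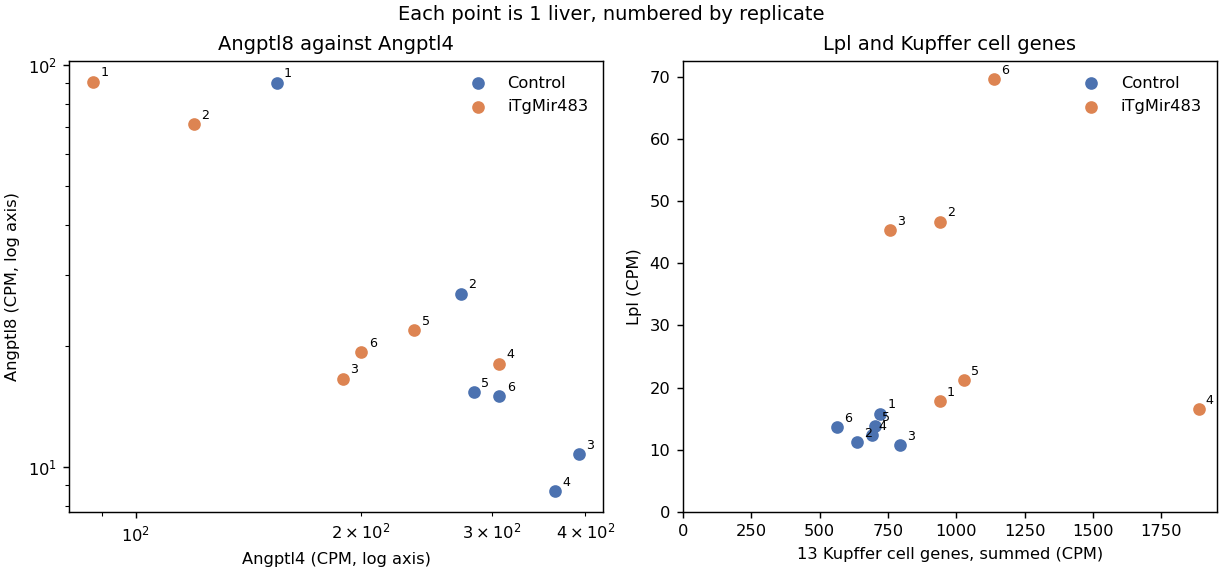
Left, Angptl8 against Angptl4, both in CPM on log axes; right, Lpl in CPM against the summed CPM of 13 Kupffer cell genes, both axes from 0. Each point is 1 liver with its replicate number. Control replicate 1 and iTgMir483 replicates 1 and 2 sit at the upper left of the first panel, and iTgMir483 replicate 4 sits at the lower right of the second, at 1886.7 and 16.5 CPM.

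Vldlr (ENSMUSG00000024924, chromosome 19, 27216484 to 27254231, plus strand) encodes the very-low-density lipoprotein receptor, which binds triglyceride-rich particles. Its level was 12.2, 32.0, 9.27, 16.6, 14.2 and 13.3 CPM in control replicates 1 to 6 and 38.9, 39.3, 38.5, 13.5, 53.9 and 47.3 CPM in iTgMir483 replicates 1 to 6. In 5 of 6 iTgMir483 livers it exceeded every control, and replicate 4 lay within the controls. The mean rose from 16.3 ± 8.10 to 38.5 ± 13.7 CPM, 2.37-fold. This rise, 1.24 on the log2 scale with SE 0.314, passed (edgeR adjusted p = 0.0142, exact permutation p 0.0152).

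Lrp1 (ENSMUSG00000040249, chromosome 10, 127538161 to 127621148, minus strand) encodes the large endocytic receptor of remnants. It was the member with the most counts, at 1135.68, 812.3, 663.9, 777.8, 758.8 and 777.9 CPM in controls and 1362.61, 483.6, 1000.96, 1598.62, 894.0 and 822.3 CPM in iTgMir483 livers. The iTgMir483 livers spread to both sides of the controls, with 2 above and 1 below all of them. The log2 fold change of 0.32 (SE 0.234, 95% interval -0.14 to 0.78) did not pass (adjusted p = 0.356 by edgeR). The opposite-strand gene Gm16217 lies within its body, and none of the 9 members shared exon bases with another gene in GENCODE M21.

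Per kilobase of exon, the only scale on which genes are compared with each other here, the members differed widely in controls. Lipc stood at 91.5 CPM per kilobase, Angptl4 at 83.5, Lrp1 at 46.3, Angptl8 at 32.2, Lipg at 11.2, Gpihbp1 at 8.29, Lmf1 at 2.35, Vldlr at 1.61 and Lpl at 1.23. Only Gpihbp1 and Lmf1 separated among neighbours in this order, with a range of 7.001 to 9.28 against 2.04 to 2.72. In iTgMir483 livers Lipc remained first at 68.4 CPM per kilobase, followed by Lrp1 at 58.0, Angptl4 at 53.6 and Angptl8 at 45.8. Gpihbp1 at 12.1 then stood before Lipg at 7.98, and Vldlr at 3.83 and Lpl at 3.45 stood before Lmf1 at 2.02; among these neighbours only Angptl8 and Gpihbp1 had ranges that did not overlap, 19.1 to 104.9 against 10.1 to 14.3. The low end of the order depends on the length used. With the longest transcript in place of all exons, Lpl was at 3.14, Lmf1 at 8.26 and Gpihbp1 at 12.8 CPM per kilobase in controls, and Vldlr, at 2.04, was the lowest.

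**Figure D3:**
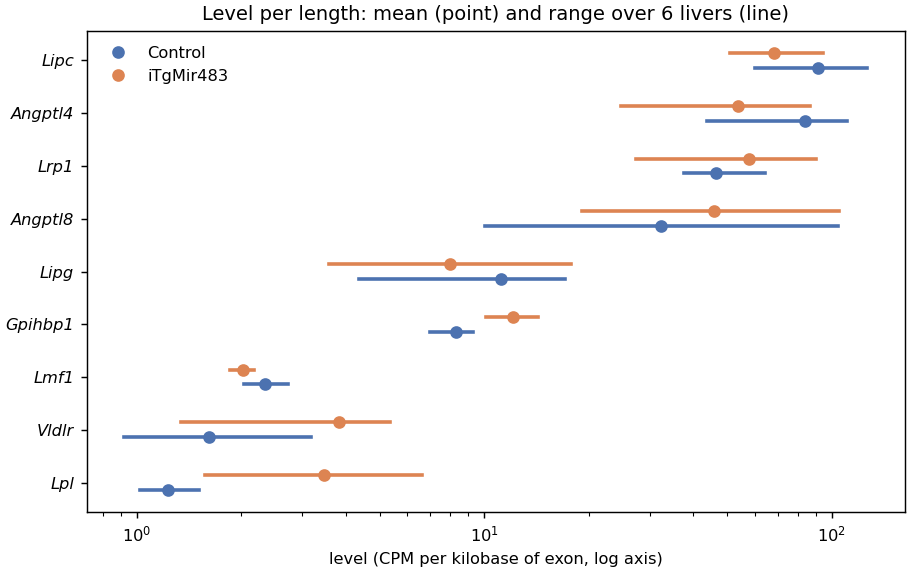
Level of each gene in CPM per kilobase of exon (horizontal log axis) in control and iTgMir483 livers. Points are means and lines the range over 6 livers. The range of Lpl moves from 1.02 to 1.51 in controls to 1.57 to 6.64 in iTgMir483 livers, still well below that of Lipc.

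The wider set of lipase cofactors and partners held 25 genes, all tested, of which 3 rose and none fell, with a median log2 fold change of -0.07. That share was close to the 11.2% called over all tested genes. Apoa4, an apolipoprotein of chylomicrons and high-density lipoprotein, rose by a log2 fold change of 2.14 (adjusted p = 0.0150 by edgeR) from 1185.12 ± 816.6 to 5216.42 ± 3291.65 CPM, with overlapping groups. Lipa, the lysosomal acid lipase, rose by 0.67 (adjusted p = 0.000411 by edgeR) with no overlap, from 252.3 to 291.6 CPM in controls to 375.5 to 480.9 CPM in iTgMir483 livers. Hspg2, the heparan sulphate proteoglycan perlecan, rose by 0.63 (adjusted p = 0.00921 by edgeR).

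The abundant partners with a direct role in lipolysis did not pass. Log2 fold changes were 0.20 for Apoc1 and 0.07 for Apoc3, which restrain lipolysis, -0.04 for Apoa5, which promotes it, and -0.15 for Apoe, the remnant ligand. The cofactor Apoc2 had few counts, with a mean of 6.38 CPM in controls, and lay at -0.45 (adjusted p = 0.0644 by edgeR). Exon overlap with other genes was checked for the 9 members only, so whether these counts reflect all Apoc2 RNA was not tested. Apoh passed the adjusted p and did not overlap between groups but missed the fold, at -0.45 (adjusted p = 0.0153 by edgeR).

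Other abundant partners fell short of the threshold too. The proprotein convertases that cleave lipases and angiopoietin-like proteins, Furin and Pcsk6, had log2 fold changes of -0.11 and 0.20. The surface proteoglycans Sdc1 and Sdc4 had -0.38 and -0.40, and the fatty acid transporter Cd36 had 0.73 (adjusted p = 0.0872 by edgeR). Folding and quality control factors lay at 0.12 (Sel1l), -0.10 (Pdia4), -0.31 (Calr) and -0.18 (Canx), with Lcat, which esterifies plasma cholesterol, at -0.14 and the transcription factor gene Creb3l3 at -0.16.

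Of 23 genes of lipoprotein receptors and their trafficking 18 were tested, 2 rose and none fell, with a median log2 fold change of 0.10. This share too was close to the 11.2% called over all tested genes. Among those that rose was Sorl1, a sorting receptor that also binds lipoprotein lipase, which went from 3.07 ± 0.491 to 6.95 ± 1.81 CPM without overlap (log2 fold change 1.18, adjusted p = 0.000884 by edgeR). Scarb1, the receptor of high-density lipoprotein, had a log2 fold change of 0.46 (adjusted p = 0.0794 by edgeR), and Lrp5 and Lrp6 had 0.10 and -0.14.

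**Figure D4:**
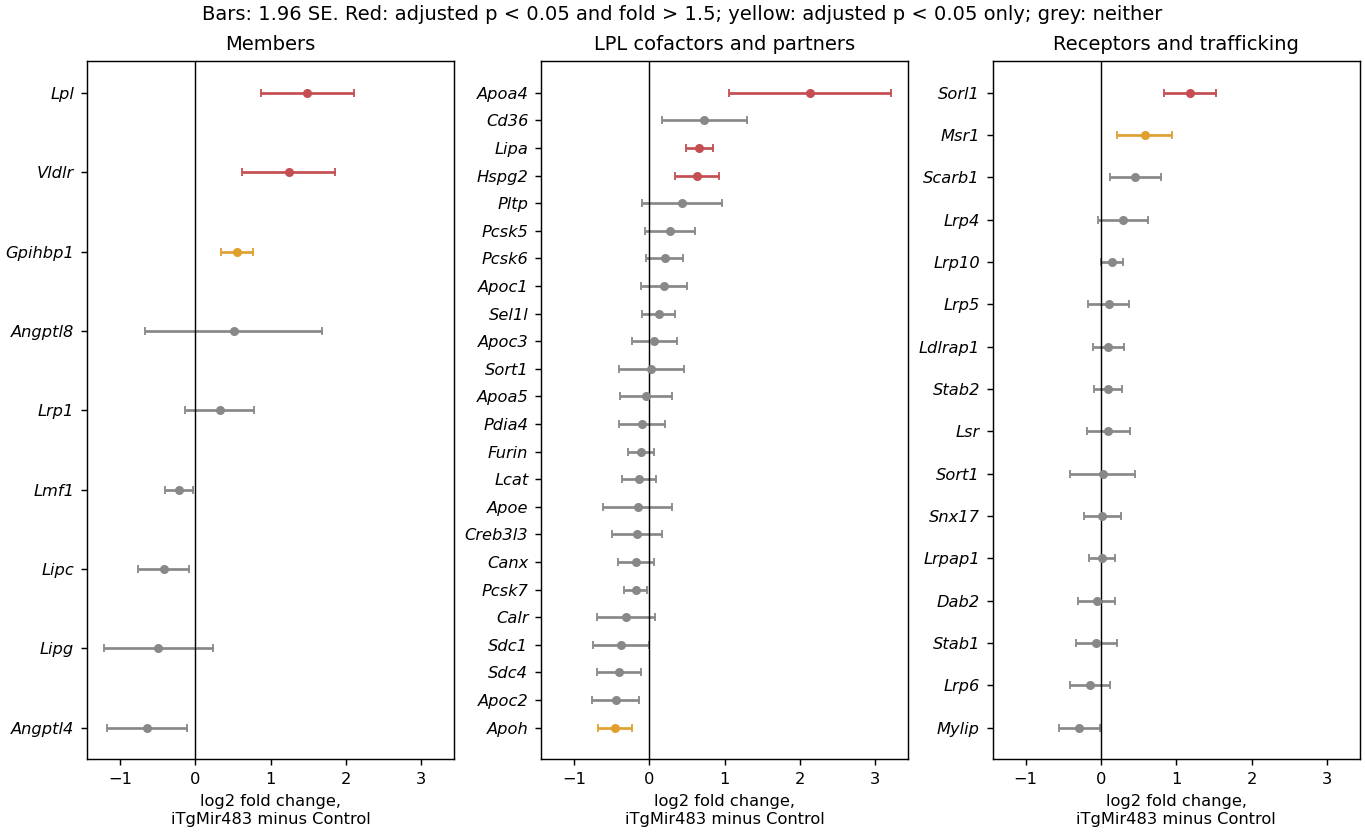
Log2 fold change, iTgMir483 minus control, of the 9 members and of the lipase cofactors, partners, receptors and trafficking genes reported here, with bars of the approximate 95% interval (normal quantile). Red marks genes past both thresholds, yellow those past the adjusted p alone and grey the rest. Lpl and Vldlr are the red members, at 1.49 and 1.24, and Apoa4 has the highest value drawn, 2.14.

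Of 16 known transcriptional regulators of the members 1, Pparg, rose (log2 fold change 0.66, adjusted p = 0.0127 by edgeR), beside 11.2% called over all tested genes. Pparg, known to drive Lpl in adipocytes, went from 10.6 ± 2.85 to 16.9 ± 2.60 CPM. Ppara, whose product induces Angptl4 in fasting, was at 0.08, and Srebf1, an inducer of Angptl8, was at 0.93 with a wide spread (adjusted p = 0.213 by edgeR). The median log2 fold change of the 16 was 0.18.

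The genes most like the called members were sought by the correlation of deviations from the group means over 12 livers, among 12494 genes with a mean of at least 1 CPM. For Lpl they were Mllt3 (r = 0.882), Nuak1 (0.872) and Tbc1d30 (0.872), and for Vldlr they were Rai2 (0.912), 0610010F05Rik (0.903) and Map3k7 (0.873). These values are the highest of many and describe the 12 livers. Among the members themselves, Lpl ran against Lipg (r = -0.639 over 12 livers and -0.698 over the 10 without replicate 1) and against Lrp1 (-0.550 and -0.580).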

How the data were processed

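Liver RNA of 6 iTgMir483 and 6 control females was extracted with miRNeasy kits and made into TruSeq libraries. The authors aligned paired-end reads with STAR to GRCm38 and deposited raw counts per Ensembl gene; which strand column they took is not given in the sources used here. Groups and replicate numbers came from the sample titles. The table held 0 columns of no sample and 0 rows that named no gene. Symbols, exon lengths and 3′ UTRs came from GENCODE M21 (55141 identifiers had a symbol, 260 had none), and mature miRNA sequences from RefSeq. The study's methods name an Ensembl release for the counts, and its exons were not compared with those of GENCODE M21. The 9 members, the gene lists and the tests were chosen with earlier results of these data known. The lists, written from general knowledge, cover lipase cofactors and partners, receptors and trafficking, the lipase family, regulators, fasting and feeding responses, and markers of Kupffer cells, recruited macrophages, endothelium, stellate cells, adipocytes, cholangiocytes, hepatocytes, striated muscle and blood.

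Genes were kept with filterByExpr (13205), scaled by TMM and tested by the quasi-likelihood F-test of edgeR 4.0.16 (under R 4.3.3, with limma 3.58.1), with group as the single term. The study's methods name this test, and state no filter, scaling or model terms. Genes were called at a Benjamini-Hochberg adjusted p under 0.05 over all genes tested and a fold change over 1.5. SE is the absolute log2 fold change over the root of its F statistic. Levels in CPM use TMM library sizes; ratios and scores use log2 CPM with a prior count of 2. Single values were tested by exact two-sided permutation over all assignments of livers, and correlations over the 720 pairings of 6. Level per length divides CPM by the union of exons. No libraries were duplicates: the smallest chi-square per gene between livers of a group was 15.7. Library totals of 12244123 to 30431286 counts bound the precision, and floors cover counting error only. Some results are not reported here, although they stayed in the counts and adjustments. The scripts were tested on simulated data. Each p-value weighs a difference or a correlation against the spread between these livers.

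Named genes were the 9 members, the genes of the ratios, genes of the cofactor and receptor lists that passed both thresholds or had a mean of at least 100 CPM, up to 3 abundant genes of marker lists, and the 3 genes most like each called member; Apoc2, the lesser lipases, the regulators and the other genes of the marker and response lists were named after their values were seen. As alternatives, DESeq2 1.42.0, limma-voom and RLE scaling were run, with stricter and looser count filters, legacy and robust quasi-likelihood, a replicate block, leaving out each library or both replicate 1 libraries, other fold rules, another prior count and the longest transcript. Equal replicate numbers came with no stated sharing of litter or batch, and 2 of 6 numbers had deviations correlated over 0.1 between groups, so they were not taken to pair livers. The highest was replicate 1, at r = 0.440, where each of the 2 livers was the other's best match, and replicate 5 was next at 0.167. What the replicate 1 livers share was not tested.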

Additional observations from a re-analysis of the deposited data

Results flagged for a closer look

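In 28 sets of 6 livers (each member and each ratio in each group) the gap between the most extreme liver and its nearest neighbour was divided by the range. It exceeded Dixon's 95% critical value in 4 of them, where chance gives about 1.4 if values are normal. Members were taken in CPM and ratios on the log2 scale, and all 4 were members. The ratios reuse values of members, so the sets are not independent and the 1.4 is only a rough guide. In controls, Angptl8 in replicate 1 stood at 90.3 CPM against 8.69 to 26.9 CPM in the others, a gap of 0.777 of the range. The same liver was high in Lrp1, at 1135.68 CPM against 663.9 to 812.3 CPM, a gap of 0.685. Vldlr in control replicate 2 was 32.0 CPM against 9.27 to 16.6 CPM, a gap of 0.677. In iTgMir483 livers, Lipg in replicate 4 was 83.8 CPM against 16.9 to 38.7 CPM, a gap of 0.674.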

How the results depend on the processing

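Lpl and Vldlr passed both thresholds in each of 21 alternatives in scaling, filter, test, block and libraries, with log2 fold changes of 1.19 to 1.69 and 1.12 to 1.55, and no member changed sign in any of them. Against 1475 genes called, the adjusted p alone called 2484, and a test of a fold over 1.5 called 237 genes and 0 members. With the replicate block, a fit on numbers that were not shown to pair livers (3 of 12 livers correlated best with their own number), 4 members were called, 1 of them lower: Angptl4 at -0.70 (adjusted p = 0.00749 by edgeR) and Angptl8 at 0.66 (adjusted p = 0.0199 by edgeR) passed. Under the block the Lpl to Lipc ratio, 1.69, was higher in 6 of 6 numbered pairs and had the smallest exact sign-flip p that 6 pairs allow, 0.0312 (adjusted p = 0.0521), so this test could not pass adjustment by itself. Without both replicate 1 libraries 1 member was lower, Angptl4 at -0.62. Leaving out single livers gave 0 to 1 member lower, and log2 values of 0.50 to 0.60 for Gpihbp1, -0.83 to -0.49 for Angptl4 and 1.38 to 1.95 for Lpl to Lipc. With the longest transcript the control levels of Lpl, Lmf1 and Gpihbp1 moved to 3.14, 8.26 and 12.8 CPM per kilobase. The cause of these shifts was not tested. Poly(A) counts measure neither mature miRNA nor lipase activity, and 6 livers a group left intervals over 1 log2 unit wide for Lpl, Vldlr, Lipg, Angptl4 and Angptl8.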

Other observations

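Among the markers not described above, cholangiocyte genes rose in 3 of 5 tested (Krt7, Epcam and Tspan8, log2 fold changes 1.35, 1.41 and 1.61), with sums of 5.30 to 8.78 CPM in controls and 7.91 to 17.3 CPM in iTgMir483 livers. None of 10 tested stellate cell genes passed (median log2 fold change 0.31, sums of 396.9 to 532.9 and 473.0 to 590.2 CPM), and none of 5 blood genes did (median 0.49, sums of 131.7 to 241.8 and 86.6 to 383.3 CPM).

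Most members that were not called had closer neighbours than the called members had. Over deviations from the group means in 12 livers Angptl4 ran with Adm (r = 0.956), Itgb3 (0.948) and Cdkn1a (0.948), the highest of 12494 genes. The closest neighbour had r = 0.953 for Lipg, 0.945 for Lrp1, 0.941 for Angptl8, 0.928 for Lipc and 0.926 for Gpihbp1, but 0.874 for Lmf1. These values describe these livers.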
